A study of Mus musculus with 6 samples.

Results

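The transcription factors Sox2, Pdx1, Gata4, Gata5, Gata6, Foxa1, Foxa2, Foxq1, Klf4 and Hnf4a, which set the identity of stomach regions and of their lining cells, were read in the gastric mucosa of mice with and without A4gnt. They were taken by symbol from the array's probes that are not controls, which gave 11 probes for 10 genes among 31689 genes and unnamed transcripts. A4gnt encodes the enzyme that adds the terminal N-acetylglucosamine to the mucin of gastric glands. Mucosa of the glandular stomach, separated from the muscle, came from C57BL/6J mice, and each of the 6 one-colour arrays carried 1 mouse. The groups were A4gnt null and wild type at 5, 10 and 50 weeks, with 1 mouse in each group. Nothing in the labels says what part of A4gnt was deleted, and an age cannot be told apart from the mouse that stands for it.

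The stomach of the mouse has a squamous forestomach, a corpus with acid and enzyme glands, and an antrum with mucous glands and gastrin cells. SOX2 is a foregut factor kept in the stomach epithelium, PDX1 marks the antrum, duodenum and pancreas, and GATA4 marks the columnar epithelium on the glandular side of the border with the forestomach. FOXA1 and FOXA2 open chromatin in endoderm, FOXQ1 is needed for mucin in surface mucous cells, KLF4 acts in the differentiation of surface epithelia, and HNF4A is a nuclear receptor of gut and liver epithelium.

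The sequences below show what was measured for the factors that varied most and where a probe's own sequence bears on its reading. Each is 5′ to 3′ along the transcript, with mm9 coordinates. For Sox2, Pdx1 and Klf4 the opening 30 bases of the 60-base probe are given, in lower case throughout.
Sox2 (chr3:34550773-34550802, plus strand): tggcaatcaaatgtccattgtttataagct
Pdx1 (chr5:148086570-148086599, plus strand): ccctgagcttctgaaaactttgaggctgct
Klf4 (chr4:55540197-55540226, minus strand): gtttattcccaagtatgcctttaagcagaa
Foxa2 was read by 2 probes that lie end to end on its transcript, and the capitals mark the bases both contain.
Foxa2 brighter probe, closing 30 bases (chr2:147868669-147868698, minus strand): gctttatttatggcttataaatgtgTGTTC
Foxa2 dimmer probe, opening 30 bases (chr2:147868644-147868673, minus strand): TGTTCtggctagaatggccagaattccaca
The Gata5 probe shares a run of at least 16 bases with 11 probes of 11 other genes, against 0 or 1 for the probes of the other members, and whether other transcripts add to its signal was not tested. Bases 25 to 54 of the probe are shown, with the bases most often shared in capitals.
Gata5 (chr2:180059873-180059902, minus strand): tagctctgGCTGTCCTGGAACtcattatgt

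The scanner software called 54.8% to 59.2% of the 43020 non-control spots of an array well above background, and the number of arrays limits the precision. Signals are given in the scanner's processed units, and differences on the log2 scale after each array was set relative to its 75th percentile (252.8 to 402.8 units). The A4gnt probe had signals of 2.30, 2.94 and 2.11 on the null arrays of 5, 10 and 50 weeks, none well above background, against 165, 325 and 264 on the wild-type arrays, at least 24.3-fold lower in null (limma adjusted p = 0.0921). Null and wild-type arrays were on different slides, so slide and genotype cannot be told apart. Xist, made from the inactive X chromosome, had signals of 66.7, 3.55 and 2.73 on the null arrays and 161, 3.15 and 3.34 on the wild-type arrays. Ddx3y, on the Y chromosome, had 2.75, 222 and 251 on the null arrays and 3.13, 320 and 202 on the wild-type arrays. Both 5-week arrays thus carried Xist and lacked the Y-linked signal, and the 4 later arrays were the reverse, so a difference between 5 weeks and later ages cannot be told apart from this one. The labels used here give no sex.

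All 10 factors were well above background on all 6 arrays. The spread over the 6 arrays was under 1 log2 unit for 7 of the 10 factors, near the 71.8% of all genes well above background on all 6 arrays, and at least 1 for Sox2, Pdx1 and Klf4. The largest mean difference between genotypes was that of Pdx1, higher in null. Foxa2 was the factor with the largest mean difference in the other direction. No factor passed the test of genotype (limma, adjusted p under 0.05), with 0 of 10 higher and 0 of 10 lower, and over all genes tested 0% passed as higher and 0% as lower. At an unadjusted p under 0.05 stood 3 factors (Pdx1, Klf4 and Foxa2) and 4215 genes in all, or 23.6%.

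**Figure D1:**
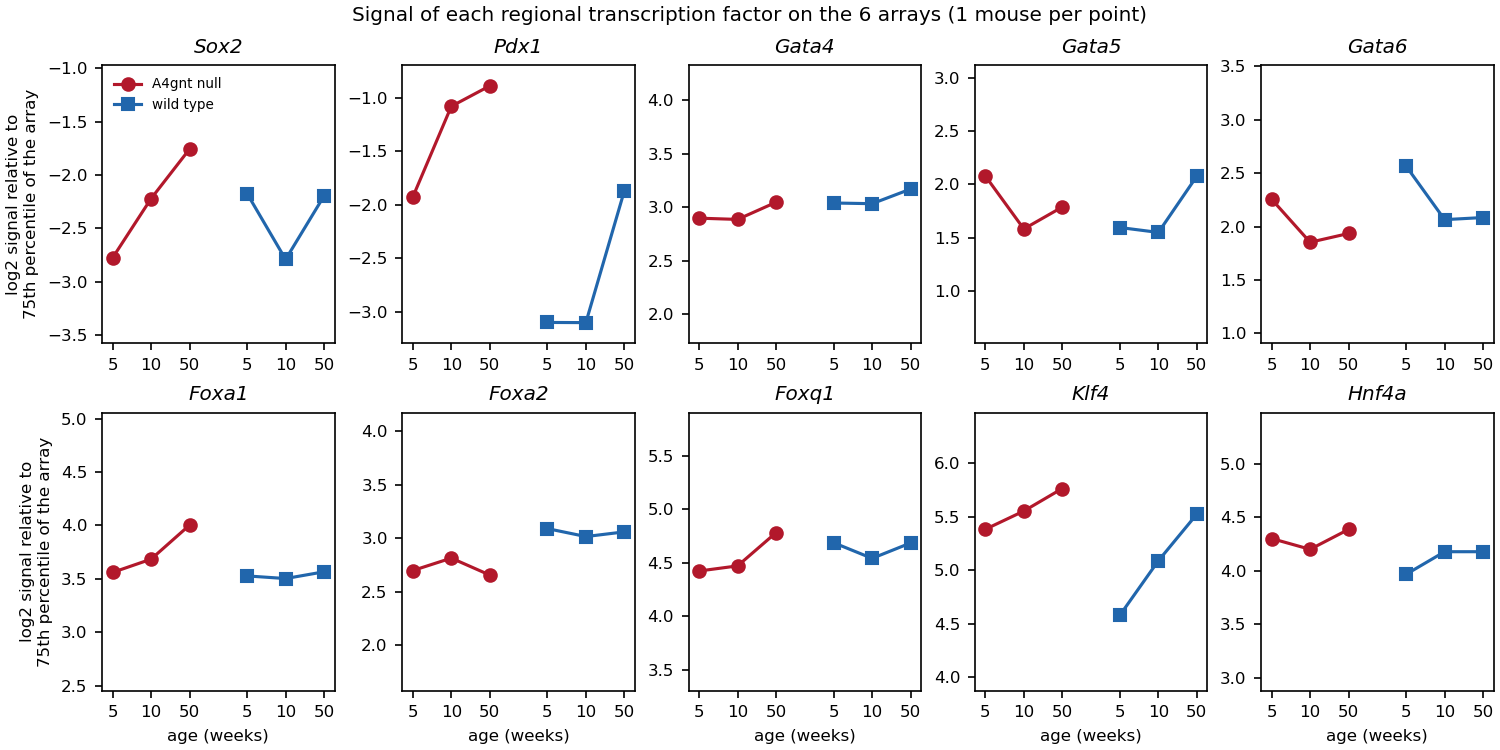
Log2 signal of the 10 factors relative to the 75th percentile of each array (vertical axis) against age in weeks, for A4gnt null mice (red circles) and wild-type mice (blue squares). Each point is 1 mouse, lines only join the ages of a genotype, and every panel spans the same range; Pdx1 spreads over 2.21 log2 units and Gata4 over 0.28.

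Pdx1, the homeobox factor of antrum, duodenum and pancreas, gave a higher signal in the null mouse at each age. Its probe (NM_008814; mm9 chr5:148086570-148086629) had signals of 66.5, 155 and 217 on the null arrays of 5, 10 and 50 weeks, against 29.9, 41.5 and 79.1 on the wild-type arrays. The 5-week null array lay below the 50-week wild-type array once scaled (-1.93 against -1.87), so the genotypes overlapped. Null minus wild type was 1.18, 2.02 and 0.98 at 5, 10 and 50 weeks, or 2.26-, 4.06- and 1.98-fold, each from 1 mouse against 1 mouse. The normalised level averaged -1.30 ± 0.55 in null and -2.69 ± 0.71 in wild type (log2, SD, n = 3 each). The mean difference was 1.39 ± 0.25 (SE) and did not pass the test (limma adjusted p = 0.137). Of the genes tested, 2.92% had a larger mean difference in either direction, and 7.52% a wider spread over the arrays. The lowest Pdx1 signal was 2.60 times the lowest signal called well above background on its array, so the low wild-type values are close to the detection limit. With a normexp background correction the mean difference was 0.76, or 1.70-fold, in place of 2.63-fold. With the 2 later wild-type arrays and the age term both left out, it was 1.80 (limma adjusted p = 0.218). That value sets null mice of 3 ages against 1 wild-type mouse of 5 weeks, assumed to vary as the others do, so age enters it too. In whole mucosa, more cells of a type and more RNA per cell cannot be told apart.

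Pdx1 was also the factor with the steepest difference over age, higher by 1.13 ± 0.30 at 50 than at 5 weeks (log2, SE, both genotypes), which did not pass (limma F test over the 3 ages, adjusted p = 0.361). The trend of its genotype difference with the logarithm of age was -0.13 ± 0.17 for each doubling of age (limma adjusted p = 0.9996). At 2-fold or more, Pdx1 was the member that stood higher at 5 weeks (background 3.55%) and at 10 weeks (background 4.3%), and it was just under 2-fold at 50 weeks (background 2%). No member was at least 2-fold higher at all 3 ages, beside 0.445% of genes, and none was 2-fold lower at 5, 10 or 50 weeks (backgrounds 4.85%, 5.26% and 4.3%).

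RefSeq windows around the start site (GRCm38.p6, 300 bases, 250 of them before the start) were at hand for 7 of the 10 factors, 10 windows in all. The 250 bases before the Pdx1 start are shown because Pdx1 carries the widest differences, with the palindrome CACGTG in capitals, the core of the E-box that basic helix-loop-helix factors such as USF bind; it begins 51 bases before the start.
Pdx1 (GRCm38.p6 chr5:147269847-147270096, plus strand): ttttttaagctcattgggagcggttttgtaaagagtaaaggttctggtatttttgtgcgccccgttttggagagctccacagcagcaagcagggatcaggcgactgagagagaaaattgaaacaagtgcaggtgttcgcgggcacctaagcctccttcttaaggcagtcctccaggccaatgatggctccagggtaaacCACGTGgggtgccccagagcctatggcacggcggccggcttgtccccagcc
CACGTG occurs in windows of Pdx1, Gata5 and Klf4, and in 7.15% of 32851 windows of all genes. Here and below the factors are counted as genes and the shares as windows, so they are unlike measures. The other motifs were searched on both strands too, and none of them contains another. AGATAA, bound by zinc-finger factors of the GATA family, is in windows of Foxa2 and Hnf4a and in 11.2% of all windows. TGTTTAC, bound by forkhead factors, is in a window of Foxa1 and in 3.65% of all. ACAAAG, bound by SOX factors, is in windows of Foxa1, Foxa2 and Sox2 and in 18.7% of all. TAATTA, bound by homeobox factors, is in a window of Hnf4a and in 5.29% of all. A match says nothing of binding.

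Klf4, a zinc-finger factor of epithelial differentiation, was higher in the null mouse at each age. Its probe (NM_010637; mm9 chr4:55540167-55540226) had signals of 10562, 15400 and 21919 on the null arrays of 5, 10 and 50 weeks, against 6149, 12164 and 13332 on the wild-type arrays. The 50-week wild-type array lay within the range of the null arrays once scaled. Null minus wild type was 0.80, 0.46 and 0.24 at 5, 10 and 50 weeks, with a mean of 0.50 ± 0.16 (SE, n = 3 each; limma adjusted p = 0.186). The trend of that difference with the logarithm of age did not pass (-0.16 ± 0.11 for each doubling, limma adjusted p = 0.9996). Klf4 was the 1 member that was higher at each later age in both genotypes, beside 7.3% of genes. It was higher by 0.66 ± 0.19 at 50 than at 5 weeks (limma F test, adjusted p = 0.372), and both 5-week mice differ from the later mice in Xist and Ddx3y.

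Hnf4a, the nuclear receptor, differed little between genotypes. Signals of its probe (NM_008261; mm9 chr2:163398548-163398607) were 4981, 6018 and 8422 on the null arrays and 4015, 6460 and 5236 on the wild-type arrays. Once scaled, the lowest null array (4.1996, at 10 weeks) lay just above the highest wild-type array (4.177, at 50 weeks). The mean difference was 0.19 ± 0.12 (limma adjusted p = 0.403). Hnf4a was the 1 member with all null arrays above all wild-type arrays, beside 13.1% of genes.

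Sox2, the foregut factor, had no common direction. Its probe (NM_011443; mm9 chr3:34550773-34550832) had signals of 36.9, 70.3 and 119 on the null arrays of 5, 10 and 50 weeks, against 56.9, 51.6 and 63.1 on the wild-type arrays. The null mice were ordered by age, while the wild-type mouse of 10 weeks was the lowest of its genotype once scaled. Null minus wild type was -0.60, 0.57 and 0.44 at 5, 10 and 50 weeks, and the mean of 0.14 ± 0.28 was smaller than its error (limma adjusted p = 0.786). The mean was -0.080 without the 10-week pair, -0.015 without the 50-week pair and -0.076 without the 2 later wild-type arrays and the age term. The trend with the logarithm of age was 0.25 ± 0.18 for each doubling (limma adjusted p = 0.9996).

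Of the members, 3 are GATA factors, zinc-finger proteins that bind the motif in their name. Gata4 (NM_008092; mm9 chr14:63817858-63817917) had signals of 1885, 2423 and 3330 on the null arrays and 2113, 2925 and 2606 on the wild-type arrays. After scaling it spanned 0.28 log2 units over the 6 mice, the smallest spread of the members, with a mean difference of -0.14 ± 0.11 (limma adjusted p = 0.473) that was 0.022 when arrays were scaled to the median. Gata4 was thus read at nearly the same level in every mouse, on arrays that differed in squamous and corpus markers. Gata6 (NM_010258), found with GATA4 in gut endoderm, had signals of 1207, 1183 and 1540 on the null arrays and 1519, 1494 and 1227 on the wild-type arrays. Its differences were -0.31, -0.21 and -0.15 at 5, 10 and 50 weeks, with a mean of -0.22 ± 0.11 (limma adjusted p = 0.299). Once scaled, Gata6 was highest at 5 weeks in both genotypes, and 50 minus 5 weeks was -0.40 ± 0.14 (limma F test, adjusted p = 0.367). Gata5 (NM_008093; mm9 chr2:180059867-180059926), another GATA factor of gut epithelium, is read by the probe whose shared bases are shown above. Its signals were 1068, 982 and 1392 on the null arrays and 777, 1047 and 1221 on the wild-type arrays. Null minus wild type was 0.48, 0.033 and -0.29 at 5, 10 and 50 weeks, so the direction was opposite at the youngest and the oldest age (mean 0.08 ± 0.19, limma adjusted p = 0.827).

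Among the forkhead factors, Foxa2 was lower and Foxa1 higher in null at each age, and both differences were small. The brighter Foxa2 probe (NM_010446; mm9 chr2:147868669-147868728) had signals of 1639, 2301 and 2536 on the null arrays, against 2185, 2885 and 2410 on the wild-type arrays. All null arrays lay below all wild-type arrays once scaled, which held for 11.1% of genes. The mean difference was -0.33 ± 0.12 (limma adjusted p = 0.205). The dimmer Foxa2 probe (mm9 chr2:147868614-147868673), which shares only the 5 printed capitals with the other, had signals of 329, 399 and 487 on the null arrays and 530, 630 and 474 on the wild-type arrays. It also placed all null arrays below all wild-type arrays, with a mean difference of -0.54 ± 0.12 (limma adjusted p = 0.147). Foxa2 was the only member with more than 1 probe, and both probes read the same mice on the same slides. Foxa1 (NM_008259; mm9 chr12:58641764-58641823) had signals of 2984, 4212 and 6460 on the null arrays and 2963, 4050 and 3428 on the wild-type arrays. Its differences of 0.033, 0.18 and 0.44 at 5, 10 and 50 weeks gave a mean of 0.22 ± 0.14 (limma adjusted p = 0.380). Foxq1 (NM_008239; mm9 chr13:31652206-31652265) had signals of 5419, 7257 and 11071 on the null arrays, against 6612, 8307 and 7437 on the wild-type arrays, with differences of -0.26, -0.070 and 0.097 at 5, 10 and 50 weeks. Its mean of -0.08 ± 0.13 (limma adjusted p = 0.730) was 0.080 with median scaling and 0.013 without the 5-week pair.

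**Figure D2:**
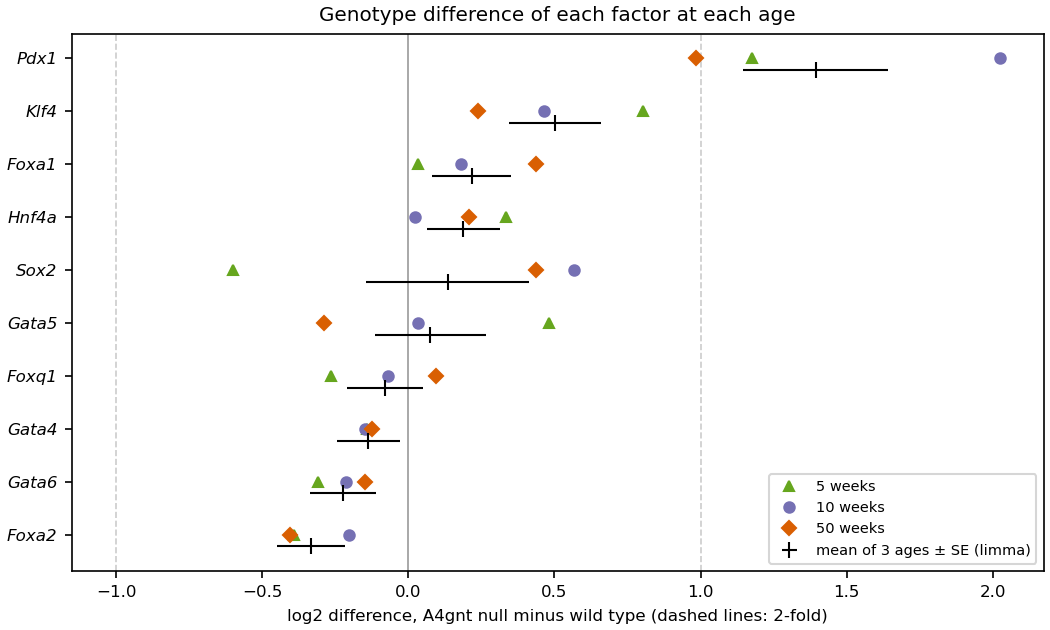
Log2 difference of each factor, A4gnt null minus wild type (horizontal axis), at 5 weeks (triangles), 10 weeks (circles) and 50 weeks (diamonds), with the mean of the 3 ages ± SE from limma as a black mark below them. Pdx1 stands apart with a mean of 1.39 ± 0.25, while the other 9 means lie between -0.33 and 0.50; dashed lines mark 2-fold.

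Counted by direction, 4 factors were higher in null at all 3 ages (Foxa1, Hnf4a, Klf4 and Pdx1), beside 27% of genes, and 3 were lower (Foxa2, Gata4 and Gata6), beside 26.3%. The median mean difference was 0.11 over the factors and -0.03 over all genes tested, and the median absolute difference was 0.20 over the factors and 0.25 over all genes. Scaling to the median moved the median of all genes by 0.16, more than the size of the mean differences of Gata4 and Foxq1, whose direction it turned. For age, 0 of 10 factors passed the F test, beside 0.0112% of genes, which were the Y-linked Ddx3y and Eif2s3y; 1 factor (Pdx1) and 13.7% of genes had an unadjusted p under 0.05. For the trend of the genotype difference with age, 0 of 10 factors and 0% of genes passed.

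Markers of stomach regions and neighbouring tissues were read on the same arrays, and 0 genes of the 12 lists passed the test of genotype. The counts by direction of each list stand beside 27% of genes higher in null at all 3 ages and 26.3% lower. Those shares are of genes well above background on all 6 arrays. Of 8 antrum markers tested, 4 were higher in null at all 3 ages and 2 lower, and 0 passed (median difference 0.35, against -0.03 over all genes). The 2 lower were Sst (-0.65 ± 0.23) and Cxcl17 (-0.26 ± 0.14). Whether the genes of this list were read from antrum alone was not tested. Gkn3, the gastrokine gene of this list, had signals of 47893, 162722 and 164479 on the null arrays and 12854, 39029 and 43289 on the wild-type arrays (1.85 ± 0.18, limma adjusted p = 0.102). Unlike those of Pdx1, all null values of Gkn3 lay above all wild-type values once scaled. The water channel Aqp5 differed by 1.77 ± 0.37 and the gland mucin Muc6 by 0.92 ± 0.11 (limma adjusted p = 0.145 and 0.110). Gast, the gastrin gene of antral G cells, went another way: its signals were 5263, 2817 and 400 on the null arrays and 1571, 7040 and 9359 on the wild-type arrays. The 50-week null array thus had the lowest Gast signal and the highest Pdx1 signal of the 6, while the 50-week wild-type array had the highest Gast signal.

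Most corpus gland markers ran opposite to Pdx1. Of 16 tested, 0 were higher and 13 lower in null at all 3 ages, beside 27% and 26.3% of genes, with a median of -0.80, and 0 passed. Among the 3 with no common direction was the pepsinogen gene Pga5, with differences of 0.91, 0.57 and -0.27 at 5, 10 and 50 weeks. The proton pump gene Atp4a had signals of 15564, 7448 and 5976 on the null arrays, against 21660, 30614 and 13259 on the wild-type arrays (-1.33 ± 0.33, limma adjusted p = 0.162). The anion exchanger gene Slc26a7 differed by -1.75 ± 0.37 and the potassium channel gene Kcnj15 by -1.26 ± 0.16. Hrh2, the histamine receptor gene, had signals of 21.3, 6.87 and 9.33 on the null arrays, the later 2 not well above background, against 58.7, 31.5 and 16.9 on the wild-type arrays. The median difference of the corpus list was -0.39, -1.10 and -1.15 at 5, 10 and 50 weeks, and that of the antrum list 1.08, 0.49 and 0.10. Lipf, a gastric lipase gene, was below the detection call on all 6 arrays. Surface pit markers, made over the whole glandular stomach, differed less: of 8 tested, 0 were higher and 3 lower, with a median of -0.14. Whether the mucosa samples held unequal parts of antrum and corpus was not tested.

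**Figure D3:**
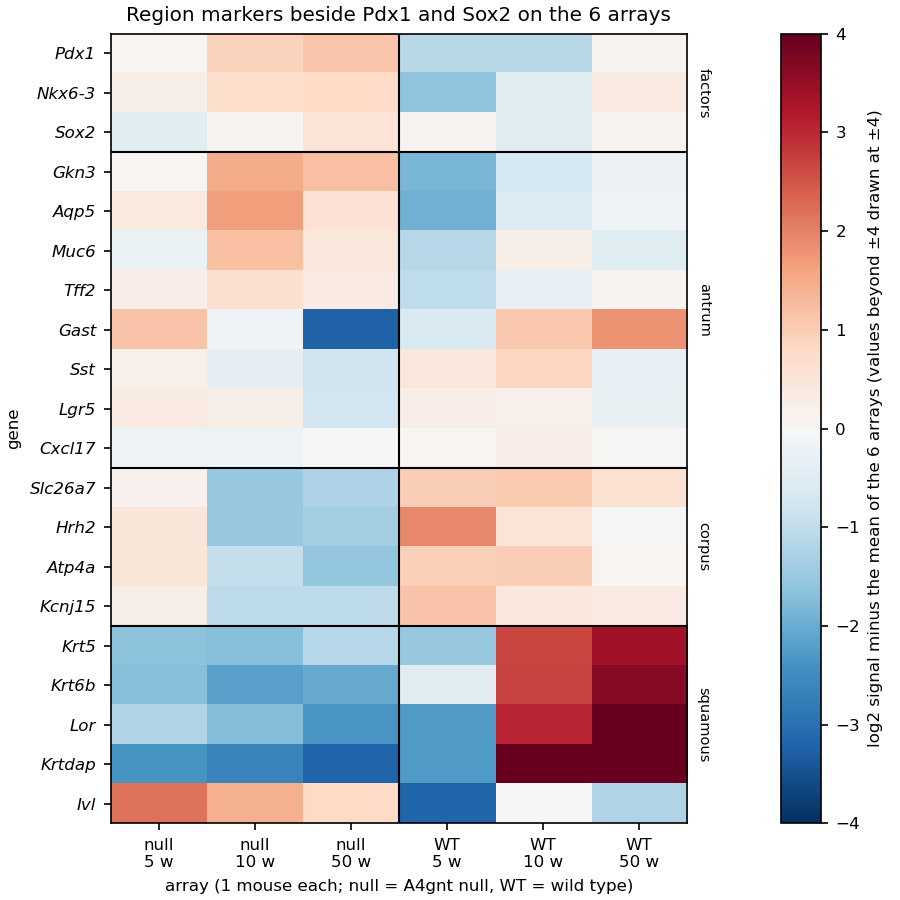
Heat map of log2 signal minus the gene's mean over the 6 arrays (colour, drawn at most at ±4) for Pdx1, Nkx6-3 and Sox2 and for markers of antrum, corpus and squamous epithelium (rows), on the A4gnt null arrays (left 3 columns) and the wild-type arrays (right 3 columns). Krt5, Krt6b, Lor and Krtdap are high on the last 2 wild-type columns alone, and Gast is lowest on the 50-week null array.

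Squamous markers of the forestomach set 2 wild-type arrays, those of 10 and 50 weeks, apart from the other 4. Of 22 such markers, 10, 9 and 11 passed the detection call in null at 5, 10 and 50 weeks, against 9, 18 and 19 in wild type. The basal keratin gene Krt5 had signals of 16.6, 20.7 and 37.5 on the null arrays and 18.4, 470 and 612 on the wild-type arrays. Lor, the cornified-envelope gene loricrin, had 45.8, 41.0 and 33.6 on the null arrays and 22.5, 1235 and 2725 on the wild-type arrays. Krt6b, another keratin gene, had 9.70, 9.03 and 12.3 on the null arrays and 23.1, 290 and 453 on the wild-type arrays. It passed the detection call on 3 wild-type arrays and 0 null arrays. On the mean of the 3 ages Krt6b was at least 13.6-fold lower in null (limma adjusted p = 0.161). Its 5-week signals lay closer together than that. Krtdap, a keratinocyte gene named after its values were seen, had 2.34, 2.496 and 2.13 on the null arrays and 2.57, 524 and 633 on the wild-type arrays. Ivl, the involucrin gene, went the other way, with 159, 123 and 98.3 on the null arrays and 3.88, 50.9 and 17.7 on the wild-type arrays. The summed level of the list, in multiples of each array's 75th percentile, was 57.4, 34.8 and 37.1 on the null arrays and 13.3, 46.3 and 45.2 on the wild-type arrays, and Sprr1a was its greatest part on all 6 arrays. Dsg3 and Dsc3, desmosomal cadherin genes of squamous cells, were below the detection call on all 6 arrays. Sox2, which the forestomach also expresses, was lowest of the wild-type mice on 1 of these arrays (10 weeks), and Gata4 kept its level on both. Klf4 is also made in squamous epithelium. Neither 5-week array had the high Krt5, Lor and Krtdap signals, but Ivl and Sprr1a were higher in null there (Sprr1a 12415 against 1893). At that age Klf4 differed by 0.80 and Pdx1 by 1.18, 1 mouse against 1 mouse. With the 2 later wild-type arrays and the age term left out, Klf4 differed by 0.99 in place of 0.50, a value that age enters too. The part of the squamous signal in the differences was not tested.

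Other neighbouring tissues were traced by their own lists, since Pdx1, Hnf4a, Foxa2 and Gata6 are also factors of pancreas, liver or intestine. Pancreas markers had a summed level of 373, 16.2 and 70.1 on the null arrays of 5, 10 and 50 weeks, against 474, 94.2 and 366 on the wild-type arrays. The amylase gene Amy2a5 was the greatest part of each sum. The median difference of the list was -1.48, -0.11 and -4.27 at 5, 10 and 50 weeks. At 10 weeks 6 of the 10 genes passed the detection call in null and 7 in wild type, so genes below the call enter that median. Single genes differed in both directions at that age, such as Amy2a5 by -2.81 and Ins2 by 1.15. Of 10 tested, 6 were lower in null at all 3 ages, with a median of -2.30, and 1 was higher, the insulin gene Ins2 (0.96 ± 0.21), named after its values were seen. Pdx1 was lowest in the wild-type mice of 5 and 10 weeks, the younger of which had the highest summed pancreas level, while Ins2, like Pdx1, was higher in null at each age. The part of pancreas tissue in the Pdx1 signal was not tested. The 5 liver markers had their highest summed level on the 10-week wild-type array, 48.6, beside 4.95 to 12.8 on the other 5, with Alb at 39.0 on the 10-week null array and 3424 on the 10-week wild-type array. The part of liver tissue in the signals of Hnf4a and Foxa2, which liver makes as well, was not tested. Of 10 intestine markers tested, 3 were higher and 3 lower at all 3 ages (median 0.03), with Gpa33 at 1.38 ± 0.20, Fabp1 at -1.58 ± 0.48 and Apoa4 at -1.55 ± 0.43. The phosphatase gene Alpi had the largest mean difference of the list (2.27 ± 0.95) with no common direction, from signals of 391, 1102 and 511 on the null arrays and 44.5, 72.2 and 484 on the wild-type arrays; Sis and Reg4 were below the detection call everywhere.

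Muscle, fibroblast and leukocyte markers were read for the tissue beneath the epithelium. Of 7 muscle markers tested, 0 were higher and 0 lower at all 3 ages, and their median difference was 2.01, 0.45 and -2.46 at 5, 10 and 50 weeks. Of 7 fibroblast markers tested, 5 were higher in null at all 3 ages and 0 lower (median 0.62), beside 27% and 26.3% of genes. Pdgfra differed by 1.03 ± 0.24 and Vim by 0.97 ± 0.17. Of 6 leukocyte markers tested, 3 were higher and 0 lower (median 0.63), and the B cell gene Cd79a was below the detection call everywhere. The part of these tissues in the values of the factors was not tested.

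Of 40 other transcription factors of gut regions, 29 were tested, and 6 were higher in null at all 3 ages, 10 lower and 0 passed (median -0.05). Over all genes, 27% were higher and 26.3% lower. Nkx6-3, a homeobox factor of antral glands needed for gastrin cells, had signals of 1675, 3015 and 3903 on the null arrays, against 473, 1440 and 2076 on the wild-type arrays (1.16 ± 0.30, limma adjusted p = 0.166). Like Pdx1 it was higher in null at each age and higher with age in both genotypes, apart from the near-equal 5- and 10-week wild-type levels of Pdx1. Cdx2, the intestinal homeobox factor, had 7.05, 94.5 and 91.8 on the null arrays and 2.46, 2.25 and 35.3 on the wild-type arrays. Only the later 2 null arrays and the 50-week wild-type array passed the detection call for it. The Iroquois factors Irx3 and Irx5 were lower in null at each age, with mean differences of -1.31 ± 0.41 and -1.98 ± 0.34, and Irx5 was well above background on 1 of 3 null and 3 of 3 wild-type arrays. Trp63, the factor of squamous basal cells, had 2 probes that disagreed: 1 was well above background on all 6 arrays (log2 levels of 2.26 to 2.96), and the other on none, so Trp63 gives no reading of squamous content here. Nkx3-2, Onecut1, Neurod1, Pax6, Hoxa5 and Runx3 passed the detection call on none of the arrays.

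Signals that pattern the stomach divided without a call. Of 22 genes, 18 were tested, and 6 were higher in null at all 3 ages, 4 lower and 0 passed (median 0.18). Over all genes, 27% were higher and 26.3% lower. Cyp26b1, which degrades retinoic acid, had signals of 20.3, 74.2 and 89.7 on the null arrays and 3.02, 17.1 and 17.0 on the wild-type arrays, the first of these below the detection call (2.31 ± 0.20, limma adjusted p = 0.0967). Grem1, a BMP antagonist made by stroma, had 80.1, 370 and 183 on the null arrays and 2.82, 70.7 and 36.0 on the wild-type arrays, the 5-week wild-type value again below the call (3.08 ± 0.64, limma adjusted p = 0.145). Shh, the hedgehog ligand of the gastric epithelium, was lower in null at each age (-0.81 ± 0.17, limma adjusted p = 0.144). Axin2, a Wnt target, was below the detection call on 1 of the 2 arrays of each age, so its differences are not read. Sfrp2, Fgf10, Rarb and Cyp26a1 passed the detection call nowhere.

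The genes whose pattern over the 6 arrays was most like that of a varying factor were sought among 3546 genes that were well above background on all 6 arrays and spanned at least 1 log2 unit, with Pearson's r as the measure. For Pdx1 these were Gm15452 (r = 0.998), the homeobox gene Meis2 (r = 0.998) and the proteasome gene Psmd14 (r = 0.996). For Klf4 they were the nucleoporin gene Nup35 (r = 0.999), Id1 (r = 0.998) and Idi1 (r = 0.991), and for Sox2 Gltp (r = 0.970), Ppwd1 (r = 0.964) and Naip1 (r = 0.959). With 6 arrays that share genotype, age and slide, and 3546 genes to choose from, values this high describe the arrays and carry no test.

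**Figure D4:**
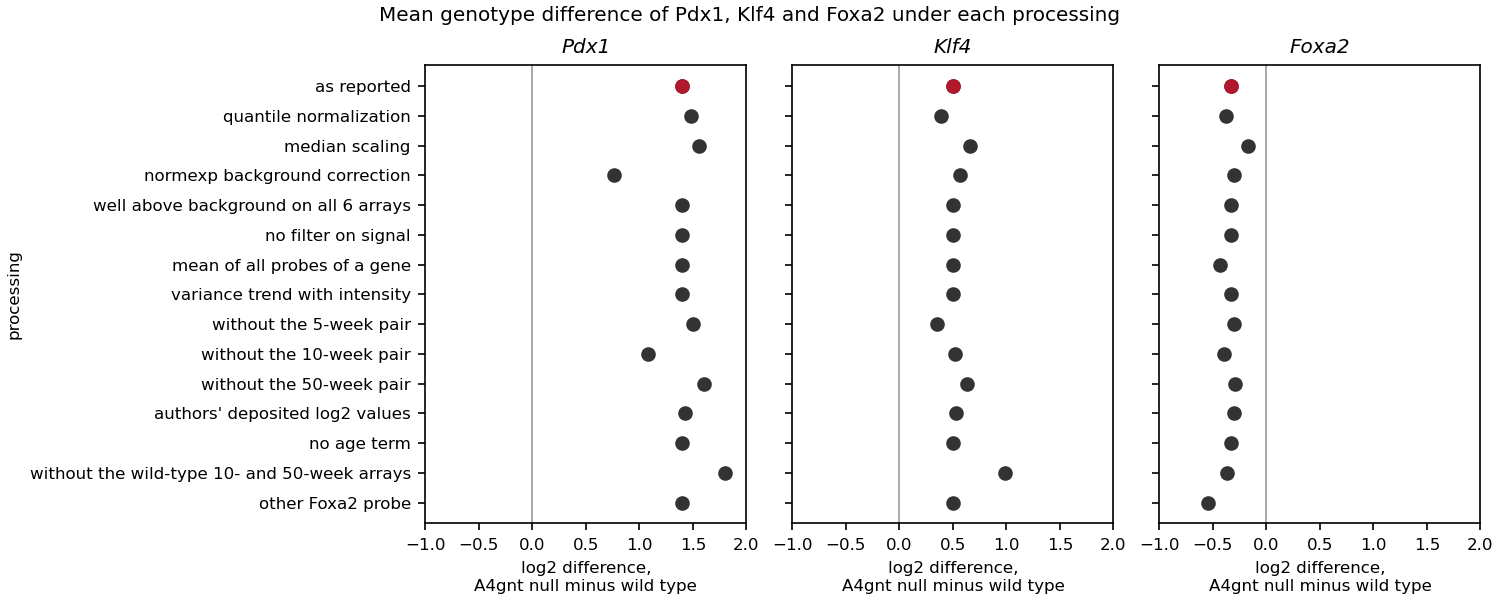
Mean log2 difference, A4gnt null minus wild type (horizontal axis), of Pdx1, Klf4 and Foxa2 as reported (red) and under each other processing (dark points, named at the left). Pdx1 ranges from 0.76 with normexp to 1.80 with 2 wild-type arrays and the age term left out, and all points keep their side of 0 for these 3 genes.

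The directions of Pdx1, Klf4 and Foxa2 held under each processing tried. Pdx1 lay between 0.76 and 1.80 (limma adjusted p from 0.0780 to 0.370), Klf4 between 0.35 and 0.99, and Foxa2 between -0.54 and -0.17.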

How the data were processed

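Per the labels, column-purified RNA was labelled with Cy3. Spot fluorescence intensity was read by Agilent Feature Extraction 10.7.1.1 per the file headers, with background subtracted by the software and probe positions in mm9. A table of log2 values that the authors deposited equals the log2 processed signal plus a constant for each array (-7.88 to -8.54), with a deviation of at most 2.00e-06. Its column medians were -3.56 to -3.89, and it served as an alternative.

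Processed signals were put on the log2 scale, averaged over the spots of a probe (98 to 144 outlier spots per array dropped) and set relative to the array's 75th percentile. Of 39429 probes, 30 had no usable spot on an array. The brightest probe stood for a gene, and genes well above background on at least 3 arrays were tested (R 4.3.3, limma 3.58.1) for genotype beside age as a factor (2 residual and 2.12 prior degrees of freedom). P-values were adjusted after Benjamini and Hochberg over 17858 genes. With 1 mouse per group, a difference at a single age has no replicate check. Tested on simulated data of this design (10 runs, 200 changed genes among 17858), the genotype test found 59.95% of 4-fold changes and 0% of 2-fold ones after adjustment. An unadjusted p under 0.05 in that test was reached by 97.1% of the 4-fold and 89.1% of the 2-fold changes. In the real data 23.6% of genes had an unadjusted p under 0.05 in the genotype test, so these rates need not carry over.

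All probes of the 10 factors were named. Named with them were, for factors spanning at least 1 log2 unit, the 3 genes with the highest correlation, and, for each of 12 marker and pathway lists, up to 4 genes with the largest mean difference and those above background nowhere. A gene that this rule covers is not reported here. Factors and lists were chosen with earlier results of these data known. The alternatives were quantile normalization, median scaling, normexp (offset 50), other filters, the mean of a gene's probes, a variance trend, no age term, the authors' values and leaving out each age pair. Leaving out 2 wild-type arrays (10 and 50 weeks) together with the age term, and using the dimmer Foxa2 probe were added after the data were seen.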

Additional observations from a re-analysis of the deposited data

Results flagged for a closer look

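Sox2, Gata5 and Gast had differences of opposite sign at 2 ages, each past 0.21 log2 units, a minimum set from the replicate spots within an array. That minimum holds no spread between mice, and the difference between ages passed no test. Null minus wild type was -0.60, 0.57 and 0.44 at 5, 10 and 50 weeks for Sox2. It was 0.48, 0.033 and -0.29 for Gata5, whose probe shares bases with probes of 11 other genes. For Gast it was 1.77, -1.20 and -5.03. Each age is 1 mouse against 1 mouse, and both 5-week mice differ from the later ones in Xist and Y-linked signal. The trend of the difference with the logarithm of age was 0.25 ± 0.18 for Sox2, -0.22 ± 0.14 for Gata5 and -1.97 ± 0.24 for Gast for each doubling of age (limma adjusted p = 0.9996 for each).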

How the results depend on the processing

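No factor passed the threshold for genotype or age under any alternative run. Of 140 genotype differences under alternatives, 58 come from settings that leave the estimate as it is, and of the other 82 the direction held in 75 and turned in 7; of 42 age differences that could move, 40 held and 2 turned. The turned directions were Sox2 at -0.080 without the 10-week pair, -0.015 without the 50-week pair and -0.076 without 2 wild-type arrays (10 and 50 weeks) and the age term, Gata4 at 0.022 and Foxq1 at 0.080 with median scaling, Foxq1 at 0.013 and Gata5 at -0.13 without the 5-week pair, and the 50 minus 5 weeks difference of Foxa2 at 0.16 with median scaling and 0.050 with normexp. With normexp, the Pdx1 difference was 0.50 at 5 and 1.16 at 10 weeks, and 0 factors were 2-fold apart at 5 weeks in place of 1; at 50 weeks 1 factor in place of 0 reached 2-fold with quantile normalization, median scaling and the authors' values. Over all genes the genotype test called 0, against 1 with quantile normalization, 189 with normexp, 41 with a variance trend and 6 without an age term. The age test called 2, against 8 with normexp, 5 with a variance trend, 0 with genes above background on all 6 arrays, 0 without a filter and 0 without any 1 age pair. The trend without an age pair could not be fitted, and the cause of these changes was not tested. Arrays of one age are already paired by the age term, and the labels number no replicates. The Pdx1 signals, down to 2.60 times the lowest called signal, are those most limited by background.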
